A study of Mus musculus with 24 samples.

Results

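Injured mouse hearts (DTR_PBS) were compared with uninjured hearts (WT_PBS) across 15456 expressed genes, in 12 of the 24 libraries of the series. Members were chosen by their labels and column names: 6 libraries named DTR-PBS and 6 named WT-PBS, each from ventricular apexes of a 10 week old male C57BL/6 mouse at day 5. WT_PBS hearts were wild type, had no diphtheria toxin and had the vehicle, phosphate-buffered saline. DTR_PBS hearts had an injury mediated by diphtheria toxin and had the same vehicle. The other 12 libraries, WT_PYR and DTR_PYR, came from mice given pyridostigmine, a cholinesterase inhibitor. They were not compared, but entered the choice of the genes tested, the scaling and the estimate of the spread between libraries. Every DTR_PBS mouse had both the DTR genotype and the toxin, so their parts cannot be told apart, and which cells carried DTR could not be taken from the labels. The labels do not say when toxin or vehicle was given.

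Diphtheria toxin enters a cell through the precursor of heparin-binding EGF-like growth factor, and the rodent form of that protein binds the toxin poorly. DTR is a usual name for the primate form, which makes the mouse cells that carry it sensitive. Inside the cell the toxin modifies elongation factor 2 and stops protein synthesis, so the cell dies. Heart muscle that loses cells in this way is cleared by phagocytes and replaced by scar, while the surviving cardiomyocytes change their metabolism, their contractile proteins and the factors they secrete.

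Hbegf, which encodes that precursor, checked the labels: it lay between 18.25 and 26.78 CPM (read counts scaled to the size of the library) in WT_PBS and between 105.3 and 166.7 CPM in DTR_PBS, with no overlap. Reads of an added DTR sequence and of the mouse gene cannot be told apart in this count. In 3 of the 6 DTR_PYR libraries Hbegf was at 19.33 to 25.78 CPM, the level of wild-type hearts. Those libraries are not compared here, and a fit of the same genes on the 12 PBS libraries alone gave 3314 genes up and 3214 down. Total counts were 3733114 to 34851656 in WT_PBS and 1877914 to 36318026 in DTR_PBS. The share of counts from the mitochondrial genome was 14.35% ± 6.869 in WT_PBS and 7.132% ± 1.6 in DTR_PBS (SD, n = 6 each, exact two-sided permutation test, p = 0.0238, 0.0488 after adjustment over 3 library measures). Marker sums, here and below, are CPM of the raw library total, without the TMM factors used for single genes and for calls of rises and falls. Summed cardiomyocyte markers lay at 74100 to 89500 CPM in WT_PBS and at 33400 to 70600 CPM in DTR_PBS. Of these markers 7 of 10 fell and none rose. Atrial cardiomyocyte markers lay at 64 to 147 CPM in WT_PBS and 341 to 886 CPM in DTR_PBS, with 1 of 4 tested up and 1 down. Skeletal muscle markers lay at 126 to 276 CPM in WT_PBS and 291 to 748 CPM in DTR_PBS, and all 3 tested rose. Macrophage markers lay at 165 to 273 CPM in WT_PBS and 516 to 2740 CPM in DTR_PBS, and all 9 rose. Fibroblast markers lay at 596 to 785 and 1760 to 4990 CPM, with 4 of 7 up, and endothelial markers at 807 to 1310 and 726 to 881 CPM, with 5 of 7 down. In whole tissue, fewer cells of a type and less RNA per cell cannot be told apart.

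Of the 15456 genes, 3293 (21.3%) rose and 3341 (21.6%) fell at an edgeR adjusted p under 0.05 (42.9% in either direction), and these shares are the background for each count below. Scaling by total counts alone, in place of TMM factors, gave 5705 genes up and 1756 down and moved the median log2 fold change of all genes from 0.01 to 0.39. The rises reached further than the falls. More than 2-fold rises numbered 1951 and falls 1386, and more than 8-fold rises numbered 354 against 39 falls. Groups did not overlap, with the 6 libraries of one above the 6 of the other, for 1711 rises (11.1% of genes tested) and 1685 falls (10.9%). With the genes in 4 equal bins by mean CPM, 33.9% fell and 21.9% rose in the highest bin, and 9.42% fell and 15.3% rose in the lowest. The labels do not explain the letter U or V at the end of each sample title, with 4 U and 2 V in WT_PBS and 2 U and 4 V in DTR_PBS. With that letter as a term 3575 genes rose and 3587 fell, and 3280 of the 3293 rises and 3334 of the 3341 falls had the same sign within both letters.

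The injured hearts differed among themselves in the size of the change. Library DTR_PBS 1 had the highest value of the 6 injured hearts for 1096 of the 1951 genes that rose more than 2-fold (56.2%), with a median rise of 2.24 on the log2 scale. DTR_PBS 2 had a median rise of 2.15 and DTR_PBS 4 of 1.84. The smallest changes were in DTR_PBS 5, with a median rise of 1.33, and DTR_PBS 6, with 1.16; DTR_PBS 6 was the lowest injured heart for 958 of these genes. The medians of the 1386 falls had the same order at both ends, with -1.86 in DTR_PBS 1 and -0.89 in DTR_PBS 6.

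To look past the usual cardiac lists, 62 lists were described, each by function or by name pattern. They held 7470 of the genes tested, of which 1485 rose and 1458 fell. In the 5 lists grouped as RNA, which include imprinted genes and long noncoding RNAs, 197 of 491 rose (40.1%) and 41 fell (8.35%). Of these rises 79 were in the ribosome biogenesis list. In the lists grouped as secreted proteins 110 of 277 rose (39.7%) and 56 fell (20.2%). In the lists grouped as receptors 150 of 433 rose (34.6%) and 97 fell (22.4%). Among transcription factors and chromatin enzymes 138 of 866 rose (15.9%) and 134 fell (15.5%). The list of KRAB, ZSCAN and BTB zinc fingers held 28 of these rises and 42 of these falls. Genes with no function in their name had 304 of 2960 up (10.3%) and 520 down (17.6%), while under total-count scaling all 7 lists of this kind had more rises than falls.

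**Figure D1:**
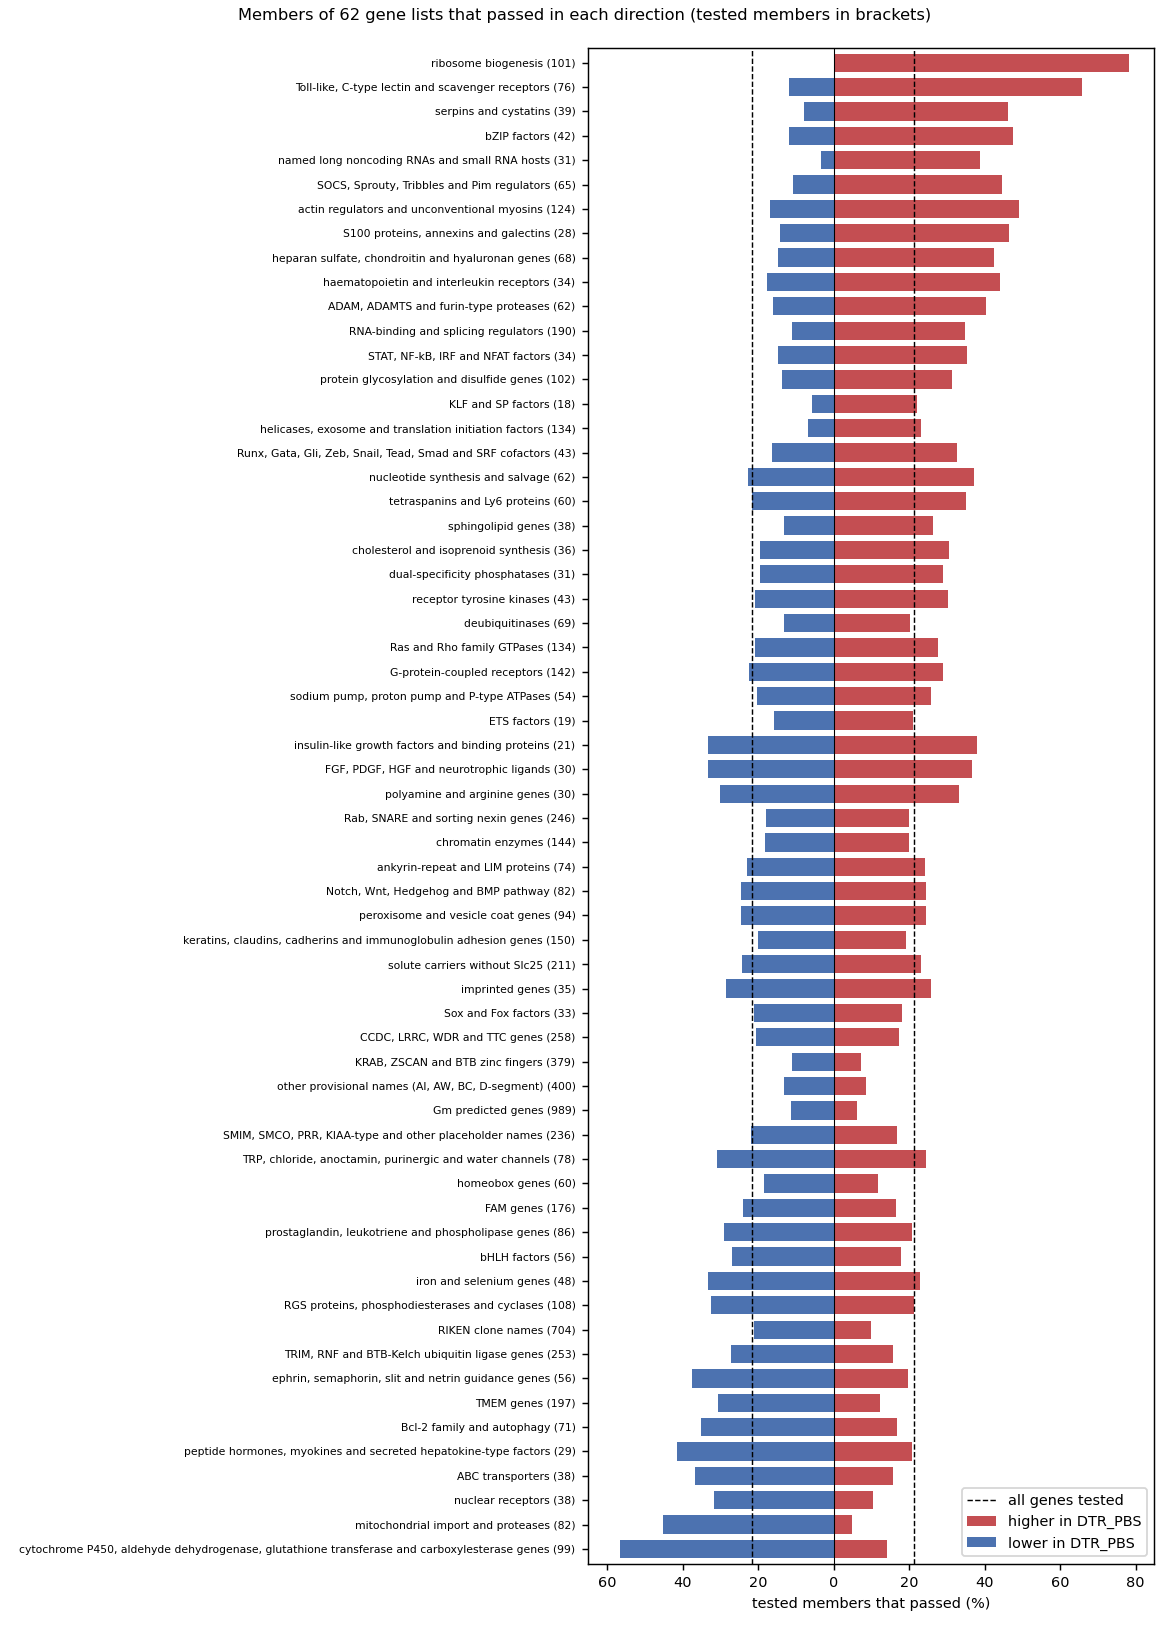
Members of each of the 62 gene lists that passed (edgeR adjusted p under 0.05) as a percentage of the members tested, rises to the right and falls to the left, with the number tested in brackets and a dashed line at the share over all genes. The ribosome biogenesis list, with 79 of 101 members up and none down, stands at one end and the cytochrome P450 and aldehyde dehydrogenase list, with 14 of 99 up and 56 down, at the other.

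Genes that build ribosomes rose together. Of 101 tested, 79 rose and none fell under either scaling (94 rose with total counts), with a median log2 fold change of 0.83 against 0.01 for all genes. In 57 of them the injured and uninjured hearts did not overlap. Ribosomes are assembled in the nucleolus, where ribosomal RNA is transcribed, cut, chemically modified with the help of small nucleolar RNAs, and packed with ribosomal proteins. Gnl3, which encodes the nucleolar GTPase nucleostemin (chr14:31012434-31019089), lay at 7.7 to 17.4 CPM (median 12) in WT_PBS and 53.8 to 93.8 CPM (median 73.3) in DTR_PBS. The groups were far apart, with a log2 fold change 2.56, SE 0.28, edgeR adjusted p = 5.82e-06. Nop58, a core protein of the particles that methylate ribosomal RNA, lay between 4.99 and 16.1 CPM in the uninjured hearts, with a median of 8.7, and between 29.1 and 72 CPM in the injured hearts, with a median of 37.6 (log2 fold change 2.19, SE 0.29, edgeR adjusted p = 1.45e-05). Rrp12, needed for maturation and export of the subunits, had a log2 fold change of 2.17, the nucleolar helicase Ddx21 of 1.79, the rRNA methyltransferase Nop2 of 1.55 and nucleophosmin, Npm1, of 1.19.

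The rise in ribosome biogenesis was close to even across injured hearts. The list's median, as log2 CPM relative to the WT_PBS mean, was 0.90, 0.83, 0.88, 0.86, 0.71 and 0.84 in DTR_PBS 1 to 6, and between -0.09 and 0.11 in the 6 WT_PBS libraries. The list of Toll-like, C-type lectin and scavenger receptors, in the same libraries, had medians of 2.09, 1.91, 1.09, 1.71, 0.99 and 0.66. DTR_PBS 5 and 6 had the smallest median changes over the genes that rose or fell more than 2-fold. Their ribosome biogenesis medians were near those of the other injured hearts, and their receptor medians were below those of the others. Whether the 2 lists differ in spread was not tested.

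**Figure D2:**
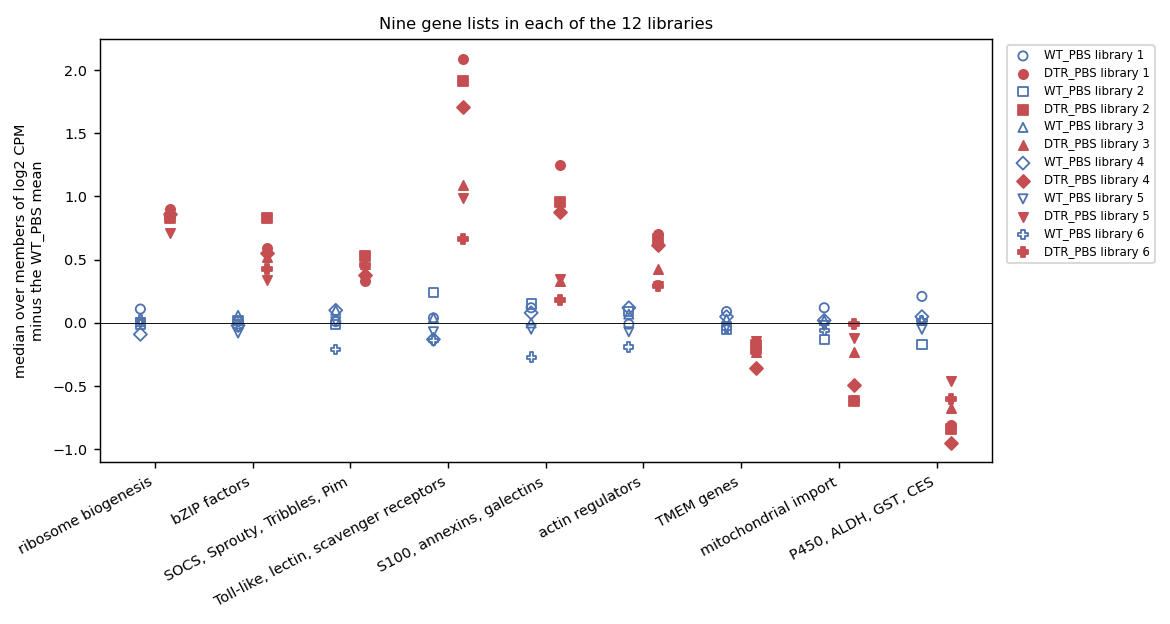
Median log2 CPM of the members of 9 gene lists in each of the 12 libraries, relative to the WT_PBS mean, with 1 point for a library. Ribosome biogenesis lies between 0.71 and 0.90 in the 6 injured hearts, while Toll-like, C-type lectin and scavenger receptors spread from 0.66 to 2.09.

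Myc, the basic helix-loop-helix factor known as a driver of ribosome production, rose in every injured heart. Myc (chr15:61985341-61990374) lay at 3.92 to 11.1 CPM (median 7.38) in WT_PBS and 80.5 to 297 CPM (median 149) in DTR_PBS. Each injured heart was above each uninjured one, and the fit gave a log2 fold change 4.40, SE 0.59, edgeR adjusted p = 1.58e-05. Mxi1, which pairs with the same partner as Myc and opposes it, fell (log2 fold change -1.17, SE 0.20, edgeR adjusted p = 7.08e-05). Myc binds the E-box CACGTG. Letters only were searched, on both strands, in RefSeq promoters of GRCm38.p6, 250 bases before to 50 after a start. Of 93 promoters of the list, 19 held the E-box (20.4%), with 18 of the 73 promoters of members that rose (24.7%) and 1 of the 20 of members that did not pass (5.00%). Among all genes tested the share was 9.57%, among all RefSeq promoters it was 7.15%, and among the receptors named above 1.61%. It was 15.2% for mitochondrial import and protease genes (12 of 79 promoters), of which 37 of 82 fell and 4 rose, and 13.9% for helicase, exosome and initiation genes. Several other motifs were searched in the same way. One of them, the ETS core CCGGAAG, was in 36.6% of the list's promoters and in 15.7% of all tested. It was also in 41.8% of those of the same mitochondrial list. Within the ribosome biogenesis list it was in 30 of the 73 promoters of members that rose and 4 of the 20 of members that did not pass. A higher share among members that rose was thus not particular to the E-box. Neither split was tested, and a part of Myc in the rises was not tested. A match is a description of the letters and shows no binding.

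E-box windows were taken only from members that rose, and 13 genes gave one. The 6 with the largest log2 fold changes are shown to let their flanks and their place be compared. Each is given as 30 bases on the gene's strand, 5′ to 3′, with the E-box in capitals.
Wdr43: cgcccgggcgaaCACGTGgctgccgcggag
Tsr1: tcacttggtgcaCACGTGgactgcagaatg
Nop2: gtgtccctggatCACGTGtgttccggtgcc
Sdad1: agcggcgtgtccCACGTGccgtttccggtt
Utp18: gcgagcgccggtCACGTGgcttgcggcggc
Rpf2: aagtaatcggtaCACGTGcattcgctaagg

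These windows lie at chr17:71616220-71616249 (plus strand, Wdr43), chr11:74898092-74898121 (plus, Tsr1), chr6:125131811-125131840 (plus, Nop2), chr5:92309986-92310015 (minus, Sdad1), chr11:93885769-93885798 (minus, Utp18) and chr10:40246988-40247017 (minus, Rpf2). The E-box lies 60 bases before the annotated start of Nop2, 20 before that of Utp18 and 26 before that of Rpf2. It lies 17 bases after the start of Wdr43, 24 after that of Tsr1 and 21 after that of Sdad1. The log2 fold changes were 1.93 for Wdr43, 1.58 for Tsr1, 1.55 for Nop2, 1.45 for Sdad1, 1.39 for Utp18 and 1.26 for Rpf2. Those of the genes with a window not shown ran from 0.47 (Imp4) to 1.17 (Nle1). Wdr43 and Utp18 encode parts of the small-subunit processome, Tsr1 a late assembly factor of the small subunit, and Rpf2 an assembly factor of the large one.

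Genes that feed ribosome production also held rises. Small nucleolar RNAs are cut from introns of host transcripts. In a mixed list of named long noncoding RNAs and small RNA hosts, 12 of 31 rose and 1 fell. Not all are such hosts: Trp53cor1 is among the rises and Mhrt is the fall. The list's median per library overlapped between groups, at -0.37 to 0.56 in WT_PBS and 0.16 to 1.21 in DTR_PBS, as log2 CPM relative to the WT_PBS mean. Snhg12 rose from a median of 5.34 to 23.2 CPM (log2 fold change 2.22, SE 0.39, edgeR adjusted p = 9.93e-05), and Gas5 rose with a log2 fold change of 2.03. Gm11974, named Snhg15 in the vM21 annotation, rose with a log2 fold change of 3.43. Its span holds Snora9, and the count does not part the strands. Uck2, the uridine-cytidine kinase that salvages pyrimidines for RNA (chr1:167222883-167285320), lay at 45.7 to 74.2 CPM (median 63.9) in WT_PBS and 352 to 683 CPM (median 459) in DTR_PBS, with no overlap (log2 fold change 3.01, SE 0.45, edgeR adjusted p = 3.16e-05). Of 62 nucleotide synthesis and salvage genes, 23 rose and 14 fell, with the adenylate kinase Ak1 among the falls at -1.30. Of 134 helicase, exosome and initiation genes, 31 rose, a share of 23.1% near the 21.3% of all genes, and 9 fell. Eif1a, a factor of start-site scanning, had a log2 fold change of 2.36, and the initiation helicase Eif4a1 of 1.35.

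Ribosomal protein L3 has a form found in striated muscle, Rpl3l, and a general form, Rpl3, and they moved in opposite directions. Rpl3l (chr17:24727820-24736143) lay at 277 to 373 CPM (median 311) in WT_PBS and 38.5 to 197 CPM (median 131) in DTR_PBS, and each injured heart was below each uninjured one (log2 fold change -1.32, SE 0.29, edgeR adjusted p = 7.15e-04). Rpl3 (chr15:80077794-80091868) lay between 46.1 and 68.3 CPM in the uninjured hearts, with a median of 49.4, and between 109 and 229 CPM in the injured hearts, with a median of 131, with the injured hearts above (log2 fold change 1.52, SE 0.22, edgeR adjusted p = 2.37e-05). This was 1 of 38 listed pairs of a muscle form and a partner called the general form here, with both tested. In some pairs that partner is a different protein (Calr for Casq2) or a form of another tissue (Pygb for Pygm). The muscle form fell in 24 pairs and rose in 3, and the general form rose in 13 and fell in 8. Only 5 pairs had the muscle form down and the general form up. These were Rpl3l and Rpl3, Tpm1 and Tpm4 (tropomyosins), Fabp3 and Fabp5 (fatty acid binding proteins), Slc25a4 and Slc25a5 (mitochondrial ADP/ATP carriers), and Adssl1 and Adss (adenylosuccinate synthases). For Adss the log2 fold change was 1.40, and for Adssl1 it was -1.29.

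In another 6 pairs both forms fell, so a general form did not always take the opposite course. The glycogen phosphorylases were such a pair, at -1.15 for Pygm and -1.50 for Pygb, as were the phosphofructokinases, at -1.62 for Pfkm and -1.22 for Pfkl. Both filamins rose: Flnc, the muscle form, by 2.29 and Flna by 1.26 on the log2 scale. The largest rise of a muscle form was that of Synpo2l, an actin-binding protein of the Z-disc, from a median of 365 to 2650 CPM (log2 fold change 3.09, SE 0.44, edgeR adjusted p = 2.23e-05). Its general relative Synpo had a log2 fold change of 0.25, which did not pass (0.60 and passing under total-count scaling). Fabp5 no longer passed without WT_PBS 1, 3, 4 or 5, or without DTR_PBS 2, and had a log2 fold change of 0.56 that did not pass without DTR_PBS 1. Slc25a5 did not pass with no filter on low counts.

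**Figure D3:**
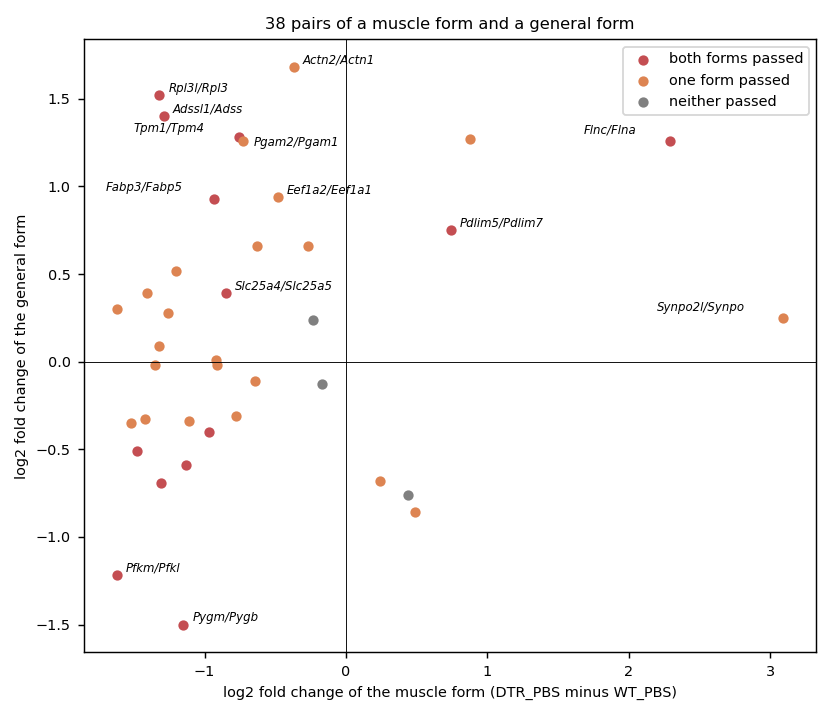
Log2 fold change (DTR_PBS minus WT_PBS) of the general form against that of the muscle form for 38 pairs, coloured by how many of the forms passed. Most points lie left of 0, where the muscle form is lower in injured hearts, and 5 pairs that passed in both forms lie at the upper left.

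Basic leucine zipper factors had the largest share of rises among the 11 lists of transcription factors and chromatin enzymes, with 20 of 42 up and 5 down (median 0.55). Beyond the immediate early members, Nfil3, a repressor that also acts in immune cells and the clock (chr13:52967209-52981073), lay at 8.36 to 18.6 CPM (median 13.7) in WT_PBS and 56.5 to 125 CPM (median 93.3) in DTR_PBS. No library of one group reached the other (log2 fold change 2.78, SE 0.39, edgeR adjusted p = 2.23e-05). Maff, a small Maf protein, rose by 2.50, Cebpd by 1.80 and Fosl1 by 1.83 on the log2 scale. Nfe2l1, which controls proteasome genes, fell (-0.87).

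Nuclear receptors, which respond to steroids, fatty acids and other small ligands, had 12 falls and 4 rises among 38 tested, but 8 and 8 under total-count scaling. The mineralocorticoid receptor gene Nr3c2 (chr8:76899442-77245012), the target of aldosterone blockers, lay between 22.6 and 32.4 CPM in the uninjured hearts, with a median of 29.8, and between 2.92 and 11.6 CPM in the injured hearts, with a median of 10.1. It fell with no overlap (log2 fold change -1.74, SE 0.32, edgeR adjusted p = 1.61e-04). Ppara, the fatty acid receptor that drives lipid oxidation genes, had a log2 fold change of -1.67. Falls were also seen for the homeodomain-only gene Hopx (-1.46) and for Mlxipl, the carbohydrate response factor ChREBP (-1.74).

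All 3 Runx genes, which set blood, bone and cartilage lineages, rose. Runx1 (chr16:92601466-92826149) lay at 2.17 to 3.48 CPM (median 2.63) in WT_PBS and 10.9 to 35 CPM (median 20.8) in DTR_PBS, with a log2 fold change 2.96, SE 0.41, edgeR adjusted p = 1.90e-05. Runx2 had a log2 fold change of 2.93 and Runx3 of 2.37. Runx3 is expressed in lymphoid and myeloid cells, and the macrophage markers given above rose in the same hearts; their part in the Runx changes was not tested. The Snail family divided. Snai1, a repressor of epithelial genes, rose from a median of 4.27 to 30.7 CPM (log2 fold change 2.75, SE 0.45, edgeR adjusted p = 6.58e-05). Snai3 lay at 7.34 to 15.5 CPM (median 10.9) in WT_PBS and 0.15 to 1.77 CPM (median 0.804) in DTR_PBS and fell (log2 fold change -4.19, SE 0.59, edgeR adjusted p = 2.21e-05). Meox1, a homeobox gene of activated fibroblasts, rose by 2.16, and Etv4, an ETS factor, by 2.94 on the log2 scale. Arnt2, a partner of PAS-domain factors, rose from a median of 0.715 to 8.53 CPM (log2 fold change 3.68, SE 0.49, edgeR adjusted p = 1.52e-05).

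The KRAB, ZSCAN and BTB zinc fingers, most of which repress transposons or have no known target, had few calls: 28 rose (7.4% of those tested) and 42 fell (11.1%), while 87 rose and 18 fell under total-count scaling and 46 rose without WT_PBS 6. Zfp568, a KRAB zinc finger known for restraining a placental Igf2 transcript, rose (1.78). Among 144 chromatin enzymes 29 rose (20.1%) and 26 fell (18.1%), near the shares over all genes. Uhrf1, which maintains DNA methylation in dividing cells, had a log2 fold change of 3.03, and the deacetylase Hdac11 one of -2.03. Of the FoxO factors, Foxo4 (-1.43) and Foxo6 (-2.16) fell.

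**Figure D4:**
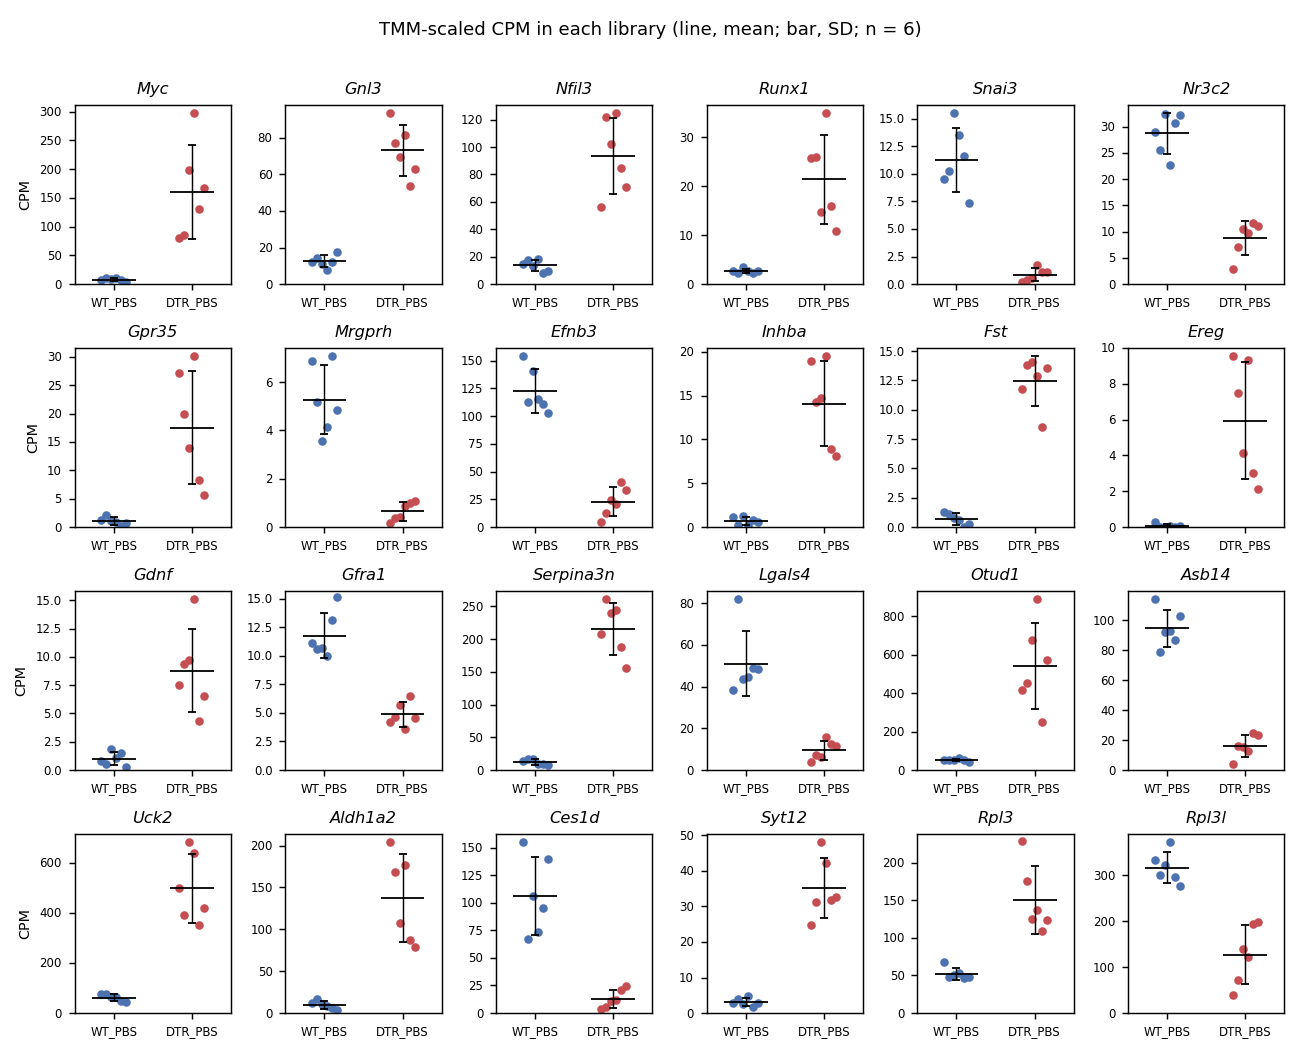
CPM in each of the 6 WT_PBS and 6 DTR_PBS libraries for 24 genes named in the text, 1 panel for a gene. The axis is linear, the line is each group's mean and the bar its SD. The groups are apart in most panels, with the injured hearts above for Myc, Runx1, Inhba and Uck2, and below for Snai3, Nr3c2, Efnb3 and Asb14.

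Many receptors of innate immunity rose. Of 76 Toll-like, C-type lectin and scavenger receptors, 50 rose and 9 fell, with a median log2 fold change of 1.65. Clec4e, or Mincle, which senses dead cells and mycobacterial lipid, had a log2 fold change of 5.02 over only 13 counts in WT_PBS, and the scavenger receptor Msr1 of 4.58. Scara5, a ferritin receptor of stromal cells, went the other way, from a median of 30.1 to 7.68 CPM (log2 fold change -2.13, SE 0.36, edgeR adjusted p = 6.97e-05). The rises in this list stand beside the summed macrophage markers, 516 to 2740 CPM against 165 to 273 CPM, and neutrophil markers of 9.78 to 51.7 CPM against 3.41 to 8.73 CPM; their part in the rises was not tested.

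G-protein-coupled receptors showed both directions, with 41 of 142 up (28.9%) and 32 down (22.5%, near the 21.6% of all genes). Gpr35, a receptor for tryptophan metabolites, lay at 0.214 to 2.17 CPM (median 0.995) in WT_PBS and 5.61 to 30.1 CPM (median 17) in DTR_PBS, with no overlap (log2 fold change 4.09, SE 0.65, edgeR adjusted p = 4.84e-05). Mrgprh, a Mas-related orphan receptor (chr17:12876034-12877842), lay between 3.57 and 7.07 CPM in the uninjured hearts, with a median of 5.01, and between 0.15 and 1.07 CPM in the injured hearts, with a median of 0.66. It fell by 3.26 ± 0.46 (SE) on the log2 scale (edgeR adjusted p = 2.23e-05). The orphan receptor Gpr27 (-2.18) and the R-spondin receptor Lgr6 (-2.01) also fell.

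Guidance molecules, which steer axons and vessels through contact, leaned down: 21 of 56 ephrins, semaphorins, plexins and their kin fell and 11 rose, but 12 fell and 17 rose under total-count scaling. Efnb3, the transmembrane ligand ephrin-B3 (chr11:69554092-69560205), lay at 103 to 154 CPM (median 114) in WT_PBS and 4.7 to 40.5 CPM (median 22.6) in DTR_PBS, with no overlap (log2 fold change -2.45, SE 0.42, edgeR adjusted p = 8.08e-05). Genes of the Eph receptors, as a wider family, divided, since Ephb1 fell (-2.23) and Epha8 rose (5.38). Epha8 had 16 counts in all WT_PBS hearts together and was highest in DTR_PBS 2, without which its log2 fold change was 4.45. The semaphorin receptor Plxnb1 fell (-1.71), whereas Plxna3 and Plxna1 rose (1.39 and 0.59). The count of rises in this list was 7 without WT_PBS 1 or without DTR_PBS 2, and 6 without DTR_PBS 4.

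Among cytokine receptors, 15 of 34 rose and 6 fell (3 without WT_PBS 6). Il7r, the interleukin 7 receptor of lymphocytes and some myeloid cells, had a log2 fold change of 4.08 and Csf2rb2, the mouse interleukin 3 beta chain, of 3.45. Summed T and NK cell markers were 2.18 to 7.50 CPM in WT_PBS and 3.33 to 12.4 CPM in DTR_PBS, and none of the 6 tested rose. The interferon gamma receptor chain Ifngr2 and the interleukin 10 receptor chain Il10rb fell (-1.41 and -0.98).

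In 2 ligand and receptor sets, whose receptors were chosen after their values were seen, the ligand rose while a receptor for it fell. Gdnf, the glial cell line-derived neurotrophic factor (chr15:7811011-7837575), lay at 0.245 to 1.84 CPM (median 0.946) in WT_PBS and 4.38 to 15.1 CPM (median 8.43) in DTR_PBS, with a log2 fold change 3.15, SE 0.56, edgeR adjusted p = 1.11e-04. Its binding receptor Gfra1 lay at 9.98 to 15.1 CPM (median 10.9) in WT_PBS and 3.55 to 6.5 CPM (median 4.6) in DTR_PBS, and it fell (log2 fold change -1.26, SE 0.22, edgeR adjusted p = 1.23e-04). The signalling receptor Ret had a log2 fold change of -0.43 and did not pass (edgeR adjusted p = 0.127). Lif, of the interleukin 6 family, rose by 3.72 on the log2 scale and its receptor Lifr fell by 0.99, while the related receptor Osmr rose by 2.45. Ereg, or epiregulin, is a ligand of the EGF receptor. It lay at 0 to 0.286 CPM (median 0.035) in WT_PBS and 2.14 to 9.53 CPM (median 5.81) in DTR_PBS, and Egfr had a log2 fold change of 1.37. The WT_PBS hearts held 11 Ereg counts in all, so its log2 fold change of 5.60 rests on few counts, and it was 6.69 without WT_PBS 1. Nrg2, a neuregulin of the same family, went the other way, at 3.08 to 8.79 CPM (median 7.36) in WT_PBS and 0.15 to 2.14 CPM (median 0.847) in DTR_PBS, with no overlap (log2 fold change -2.69, SE 0.51, edgeR adjusted p = 2.04e-04).

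Activin and its binding proteins rose together. Inhba encodes the chain of activin A, a TGF-beta family ligand, and Fst and Fstl3 encode secreted proteins that trap it. Inhba (chr13:16011851-16027211) lay at 0.214 to 1.26 CPM (median 0.743) in WT_PBS and 8.14 to 19.5 CPM (median 14.5) in DTR_PBS, with a log2 fold change 4.16, SE 0.67, edgeR adjusted p = 5.52e-05. Fst lay between 0 and 1.29 CPM in the uninjured hearts, with a median of 0.707, and between 8.5 and 14.1 CPM in the injured hearts, with a median of 13.2, also without overlap (log2 fold change 4.13, SE 0.68, edgeR adjusted p = 6.69e-05). Fstl3 had a log2 fold change of 3.16. Of the activin receptor genes, Acvr2a had a log2 fold change of 0.15, which did not pass. In the same list of 82 Notch, Wnt, Hedgehog and BMP pathway genes, 20 rose and 20 fell (31 and 8 with total counts). Each share was 24.4%, near those over all genes. Wnt5a (-1.31) and Jag2 (-1.17) were among the falls.

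Protease inhibitors of the serpin and cystatin families rose in 18 of 39 cases and fell in 3, or 1 without DTR_PBS 2 (median 0.95). Serpina3n, an inhibitor of leukocyte proteases, lay at 7.48 to 16.6 CPM (median 12.1) in WT_PBS and 156 to 261 CPM (median 224) in DTR_PBS, with no overlap (log2 fold change 4.15, SE 0.47, edgeR adjusted p = 6.25e-06). The proteases rose too, with 25 of 62 ADAM, ADAMTS, furin-type and coagulation genes up and 10 down (6 down without DTR_PBS 1). Coagulation factors VII and X, usually made by liver, rose: F7 from a median of 0.214 to 6.75 CPM (log2 fold change 4.75, SE 0.88, edgeR adjusted p = 1.67e-04) and F10 from a median of 0.357 to 7.54 CPM (log2 fold change 4.19, SE 0.83, edgeR adjusted p = 3.09e-04). Adam8, of activated leukocytes, had a log2 fold change of 4.57 and Adamts4, which cuts versican and aggrecan, of 4.53 (5.12 without WT_PBS 4). The proprotein convertase Pcsk6, which activates corin in the heart, fell (-1.27), as did Adamts7 (-1.82).

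S100 proteins, annexins and galectins had 13 rises and 4 falls among 28. The galectins show the divide: Lgals3, a lectin of macrophages and fibroblasts, rose by 4.23 on the log2 scale. Lgals4 (chr7:28833854-28841708), best known from gut epithelium, lay at 38.5 to 82 CPM (median 46.5) in WT_PBS and 3.65 to 16 CPM (median 9.24) in DTR_PBS and fell (log2 fold change -2.50, SE 0.41, edgeR adjusted p = 5.77e-05). S100a4 rose (3.96) and S100a1, the form of cardiomyocytes, fell (-0.81).

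Peptide hormones, myokines and secreted muscle factors were lower on balance, with 12 of 29 down and 6 up, and 8 down and 7 up under total-count scaling. Penk, the enkephalin precursor, fell from a median of 5.38 to 0.951 CPM (log2 fold change -2.25, SE 0.51, edgeR adjusted p = 0.00103, and -2.85 without DTR_PBS 5), and Cdnf, a secreted protein of the endoplasmic reticulum, fell by 1.60. Angptl4, an inhibitor of lipoprotein lipase, rose by 3.10 on the log2 scale. Cytl1, a small secreted protein of cartilage, fell without being in any of the lists (-3.01).

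Sugar chains of the matrix and their carriers rose in 29 of 68 cases and fell in 10. Versican, Vcan, had a log2 fold change of 3.22, and the hyaluronan receptor Cd44 of 2.90, while the hyaluronan synthase Has3 (-1.39) and glypican 1, Gpc1 (-1.22), fell. Ferritin light chain, Ftl1, rose by 1.71, in a list of 48 iron and selenium genes in which 11 rose and 16 fell (17 and 7 with total counts).

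Solute carriers outside the mitochondrial family had 49 of 211 up (23.2%) and 51 down (24.2%), near the 21.3% and 21.6% of all genes. Under total-count scaling 86 rose and 27 fell. Slc16a3, an exporter of lactate, rose (2.79), as did the magnesium transporter Slc41a2 (2.84). Slc22a3, which takes up catecholamines and other cations, fell from a median of 10.9 to 1.56 CPM (log2 fold change -2.54, SE 0.48, edgeR adjusted p = 2.04e-04, and -3.21 without DTR_PBS 6), and the glucose transporter Slc2a12 fell by 2.28. ABC transporters had 14 of 38 down and 6 up, against 9 and 11 under total-count scaling. Abca12, a lipid transporter known from skin, fell (-2.79), as did Abcc9, the regulatory subunit of the KATP channel (-1.90).

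Channels outside the usual cardiac set moved in both directions. Clcn1, the chloride channel of skeletal muscle, lay at 8.84 to 12.7 CPM (median 10.9) in WT_PBS and 0.258 to 2.8 CPM (median 1.94) in DTR_PBS and fell (log2 fold change -2.80, SE 0.50, edgeR adjusted p = 1.33e-04). Panx1, a channel that releases ATP, rose (2.30), and so did the stretch-gated channel Piezo2 (3.25). Of the uncoupling proteins of mitochondria, Ucp3, the muscle form, fell by 2.32, and Ucp2, of immune and other cells, rose by 1.40.

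Feedback regulators of cytokine and growth factor signals rose in 29 of 65 cases and fell in 7. Socs3, which shuts off interleukin 6 signalling, rose by 3.64 on the log2 scale, and the stress sensor Gadd45g by 4.08. Sesn1, a sestrin that restrains growth signalling, fell (-1.19).

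Ubiquitin ligases leaned down, with 69 of 253 TRIM, RNF and BTB-Kelch genes lower and 40 higher, although 85 were higher and 39 lower under total-count scaling. Asb14, a muscle ankyrin-repeat member of a ligase complex (chr14:26894557-26915258), lay at 78.5 to 114 CPM (median 92.4) in WT_PBS and 4.1 to 24.5 CPM (median 15.6) in DTR_PBS, with no overlap (log2 fold change -2.57, SE 0.42, edgeR adjusted p = 6.04e-05). Rnf207, a cardiac ligase tied to repolarisation, fell by 2.29. Trim17 rose by 4.03. The deubiquitinase Otud1 lay at 43.8 to 62.1 CPM (median 53.1) in WT_PBS and 248 to 891 CPM (median 514) in DTR_PBS, and it rose (log2 fold change 3.36, SE 0.54, edgeR adjusted p = 5.26e-05), in a list of 69 deubiquitinases of which 14 rose and 9 fell (9 rises without WT_PBS 3 and 23 without WT_PBS 6). Of 71 Bcl-2 family and autophagy genes 25 fell and 12 rose, but 15 fell and 24 rose with total counts. Pink1 and Bnip3, which mark mitochondria for removal, fell (-1.68 and -1.40), and the death effectors Bid and Bax rose by 2.51 and 1.48 on the log2 scale.

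Enzymes that oxidise, conjugate or hydrolyse small molecules formed the list with the largest share of falls. Of 99 cytochrome P450, aldehyde dehydrogenase, glutathione transferase, carboxylesterase and related genes, 56 fell and 14 rose (median -0.74), and 37 fell and 19 rose under total-count scaling. The list's median per injured heart, as log2 CPM relative to the WT_PBS mean, lay between -0.95 and -0.46. Cardiomyocyte markers, given above, were lower in the same hearts, and their part in these falls was not tested. Ces1d, a lipid hydrolase, lay at 66.8 to 155 CPM (median 101) in WT_PBS and 3.5 to 24.3 CPM (median 11.6) in DTR_PBS, with no overlap (log2 fold change -3.08, SE 0.43, edgeR adjusted p = 2.23e-05). Inmt, which methylates amines, had a log2 fold change of -3.22. The exceptions included enzymes that make retinoic acid. Aldh1a2 (chr9:71215789-71296243) lay at 4.23 to 16.6 CPM (median 9.4) in WT_PBS and 79 to 204 CPM (median 138) in DTR_PBS, with no overlap (log2 fold change 3.89, SE 0.59, edgeR adjusted p = 3.60e-05). Aldh1a3 rose by 2.96 on the log2 scale.

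Lipid mediators and sterols were mixed. Ptgs2, the inducible cyclooxygenase, rose by 3.67 and Hpgds, a prostaglandin D synthase, by 2.74, whereas Alox12 (-2.07) and the phospholipase Pla2g5 (-2.31) fell. Sphk1, which makes sphingosine 1-phosphate, rose (2.70). Soat1, which esterifies cholesterol for storage, rose from a median of 4.77 to 25.1 CPM (log2 fold change 2.61, SE 0.43, edgeR adjusted p = 5.94e-05), and Ch25h, which makes 25-hydroxycholesterol, rose by 4.76. In cholesterol synthesis, Sqle rose (1.53) while Fdft1, one step before it, fell (-1.29). P4ha3, a collagen prolyl hydroxylase subunit, rose by 4.34, and Gatm, the first enzyme of creatine synthesis, by 2.70.

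RNA-binding proteins and splicing regulators had 66 rises and 21 falls among 190 (112 and 10 with total counts). Celf5, a splicing regulator best known from brain, rose from a median of 0.558 to 8.87 CPM (log2 fold change 4.07, SE 0.61, edgeR adjusted p = 3.16e-05), and Rbm47 rose by 2.96. Rbfox1, a splicing factor of heart and neurons, fell by 1.95. Of 35 imprinted genes 9 rose (25.7%) and 10 fell (28.6%), against 13 and 4 with total counts. Peg10 and the noncoding Rian, expressed from one parental copy, rose by 2.11 and 1.99, and the growth inhibitor Cdkn1c fell by 2.02. The noncoding RNA Trp53cor1, or lincRNA-p21, rose (3.95). Mhrt, which lies opposite the myosin heavy chain genes, fell (-2.02), and in libraries without strand its reads cannot be told from those of Myh7 or Myh6.

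Of the mitochondrial import and protease genes, whose falls are counted above, 20 fell and 15 rose with total counts. Ppif, the cyclophilin of the permeability pore, fell by 1.24 on the log2 scale, while Tspo, an outer membrane protein abundant in macrophages, rose by 0.95. Actin regulators and unconventional myosins had 61 of 124 up and 21 down. Diap3, a formin of dividing cells, rose by 3.58 and Lcp1, the plastin of leukocytes, by 2.81, whereas Actr3b, a variant subunit of the Arp2/3 complex, fell from a median of 56.7 to 11.8 CPM (log2 fold change -2.33, SE 0.36, edgeR adjusted p = 4.35e-05). Synaptotagmins, sensors of calcium in secretion, divided, with Syt12 up by 3.46 and Syt7 down, at -1.92. So did the FHL proteins, which are built of LIM domains, with Fhl1 up by 2.44 and Fhl2 down, at -1.62. Cntn2, a neural adhesion molecule also found in the conduction system, fell by 3.17.

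Genes named only by a family or a clone had more falls than rises under TMM scaling. Each of the following reversed that balance under total-count scaling. Of 197 TMEM genes 60 fell (30.5%) and 24 rose (12.2%), against 26 and 55 with total counts. Of 704 genes with RIKEN clone names 148 fell and 70 rose (90 and 132), and of 989 Gm predicted genes 113 fell and 62 rose (66 and 120). The median log2 fold change of TMEM genes was -0.30 under TMM scaling and, under total-count scaling, -0.32 relative to the median of all genes. By annotated type, 23.1% of 13645 protein-coding genes rose and 22.8% fell. For 364 antisense genes the shares were 5.77% and 17.9%, and for 370 lincRNAs 11.1% and 16.2%. The libraries do not keep strand, so reads of an antisense gene cannot be told from those of its partner. The median level was 16.8 CPM for protein-coding genes, 0.916 CPM for lincRNAs and 0.766 CPM for antisense genes.

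Among the unnamed genes, Gm26809, a lincRNA (chr6:18844220-18847360), lay at 121 to 211 CPM (median 148) in WT_PBS and 375 to 1720 CPM (median 819) in DTR_PBS, with no overlap (log2 fold change 2.68, SE 0.43, edgeR adjusted p = 5.24e-05). The coding gene nearest to Gm26809, Lsm8, 1219 bases away, had a log2 fold change of 0.38 and did not pass. Gm26809 overlaps the locus Gm20186, and without strand their reads may not be separable. Gm12840, another lincRNA (chr4:117700188-117700923), lay between 7.7 and 14.5 CPM in the uninjured hearts, with a median of 9.17, and between 23.2 and 145 CPM in the injured hearts, with a median of 66.3 (log2 fold change 2.99, SE 0.48, edgeR adjusted p = 5.09e-05), and its nearest coding gene, Dmap1, 17915 bases away, was at 0.14 and did not pass. Gm13889 (chr2:93955810-93957201), annotated as coding, rose from a median of 4.56 to 40.8 CPM (log2 fold change 3.20, SE 0.46, edgeR adjusted p = 2.49e-05), and it overlaps the locus Gm27027.

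Other unnamed genes lay beside a gene that changed in the same direction. A530016L24Rik (chr12:112489448-112499927) fell by 3.34, and Tmem179, 262 bases away on the other strand, fell by 2.61, so reads at their edges cannot be assigned by strand. B430306N03Rik rose by 4.05 and lies 3608 bases from Treml2, a receptor of the Trem family, which rose by 3.33. BB218582 fell by 2.23, and Mpped2, 42905 bases away, fell by 1.96. The locus Gm37691 lies inside Lamb3 and RP23-407I6.6 inside Atp2a2, and each fell with its host: -2.32 beside -2.67, and -2.30 beside -1.46. Reads of these loci and of their hosts cannot be told apart.

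Families with a placeholder name held large changes. Fam71a, with 8 counts in the WT_PBS hearts together, rose by 5.67 on the log2 scale (4.74 without DTR_PBS 2 and 6.29 without WT_PBS 1) and Fam46b by 3.56, while Fam81a lay at 7.9 to 12 CPM (median 9.41) in WT_PBS and 0.807 to 3.34 CPM (median 1.91) in DTR_PBS and fell (log2 fold change -2.39, SE 0.46, edgeR adjusted p = 2.21e-04). Smco1, a single-pass membrane protein with coiled coils, lay between 7.88 and 15.1 CPM in the uninjured hearts, with a median of 12.1, and between 0.443 and 3.5 CPM in the injured hearts, with a median of 0.571 (log2 fold change -3.06, SE 0.50, edgeR adjusted p = 5.99e-05). 6330403A02Rik, called Stum in the vM21 annotation, fell by 2.83, and AF251705, called Cd300c2 there, rose by 2.97. Outside every list, Plcxd2, related to phospholipase C, rose from a median of 0.53 to 15.8 CPM (log2 fold change 4.83, SE 0.68, edgeR adjusted p = 2.19e-05), and Cyb5r2, a cytochrome b5 reductase, fell by 2.85.

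**Figure D5:**
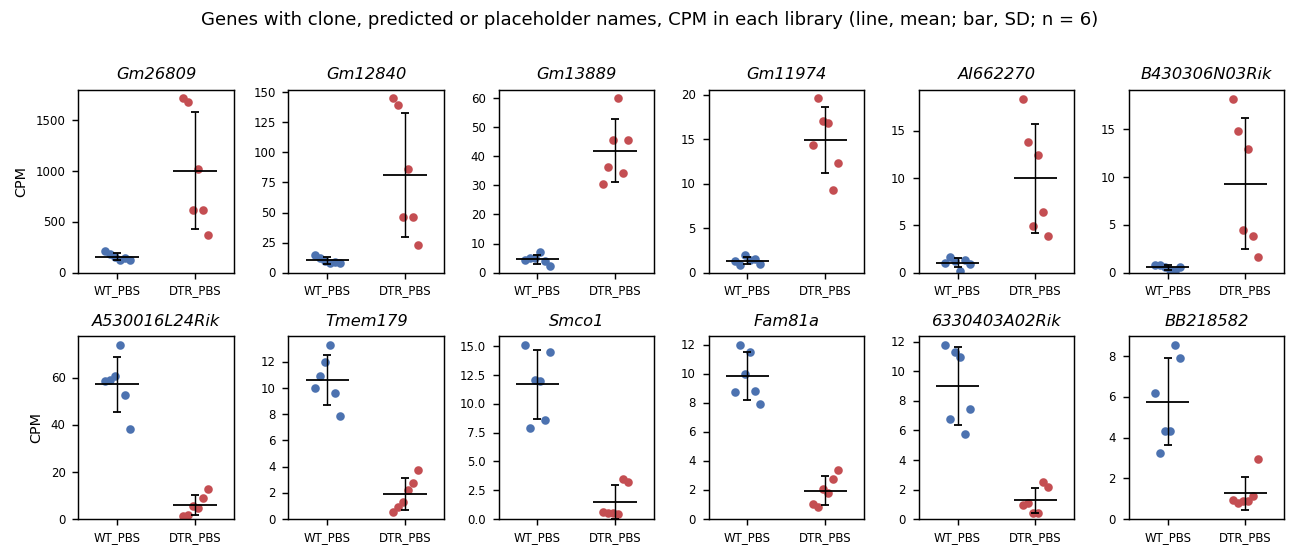
CPM in each of the 6 WT_PBS and 6 DTR_PBS libraries for 12 genes with clone, predicted or placeholder names. The axis is linear, the line is each group's mean and the bar its SD. Gm26809, Gm12840 and Gm13889 lie higher in the injured hearts, and A530016L24Rik, Tmem179 and Smco1 lie lower.

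At the edge of detection, 15 genes that rose had at most 3 counts in the sum of the 6 WT_PBS libraries, and 8 genes that fell had at most 3 counts in the 6 DTR_PBS libraries. The most abundant of the first kind were Tarm1 and Olr1. Tarm1, a receptor of myeloid cells, had 0.667 to 4.43 CPM in the injured hearts, and Olr1, the receptor for oxidised low-density lipoprotein, had 0.4 to 3.69 CPM. Of the second kind, Cbln1, a secreted synapse organiser, had 0 to 2.17 CPM in the uninjured hearts and at most 0.0215 CPM in the injured ones, and these ranges overlap. Rnase1, a secreted ribonuclease of vessels, had 0 to 1.33 CPM in the uninjured hearts. A low count of this kind does not show absence, and no fold change is given for these genes.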

How the data were processed

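RNA was measured by sequencing polyadenylated RNA of mouse ventricular apexes, in single-end libraries that do not keep strand, per the labels' protocols. The authors deposited a table of raw counts, reads per gene and library, that was used as deposited. The submitters' processing notes name TopHat2 2.1.1, TopHat, Bowtie2, HTSeq, DESeq and edgeR and the build GRCm38, without their roles. Counts were fitted with edgeR 4.0.16 in R 4.3.3 (quasi-likelihood test, TMM scaling, 24 libraries, 1 coefficient for each of 4 groups). Of 46078 genes, the 15456 above 0.5 CPM in at least 6 of the 24 libraries were tested, with Benjamini-Hochberg adjustment over them and a threshold of 0.05. CPM are counts divided by the TMM-scaled library total, on the usual scale of that unit, and log2 CPM used a prior count of 2. Only the summed cell type markers used the raw library total. The fitted log2 fold changes are DTR_PBS minus WT_PBS. Labels do not say how the 6 libraries of a group were raised or prepared, so p-values measure the spread between these samples. Lists were described by counts and medians, with no set test.

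On simulated data made from the counts of these 15456 genes, 42 of 50 genes set to a log2 change of 2, 23 of 50 set to 1, 27 of 50 set to -1 and 37 of 50 set to -2 were recovered, with 3 false calls in all. Few genes were changed there, evenly up and down, while 42.9% passed in the data. The simulation therefore cannot speak to the choice of scaling. Alternatives were DESeq2 1.42.0, its size factors, total-count scaling, no filter, a filter at 2 CPM, the 12 PBS libraries alone, the tag letter as a term and each library left out. Figures were drawn with matplotlib 3.10.9.

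The members and lists were chosen with earlier results of these data known. Named genes came from a rule. Among genes that passed, without overlap and at 5 CPM or more in the higher group, it takes the 10 largest rises and falls outside the lists and up to 2 rises and 2 falls of each list. It adds the 10 largest gains and losses of mean CPM, every muscle and general pair, and the 6 most abundant genes with at most 3 counts in the other group. Wdr43, Nop2, Tsr1, Sdad1, Utp18, Rpf2, Rrp12, Ddx21, Npm1, Gas5, Mxi1, Cebpd, Fosl1, Runx3, Snai1, Lgr6, Gfra1, Ret, Lifr, Osmr, Egfr, Fstl3, Acvr2a, F10, Adamts4, Ucp2, Gm12840, Gm26809 and the neighbours of unnamed genes were chosen after their values were seen. Of 15456 genes tested, 11344 matched a RefSeq promoter by symbol. Some genes are not reported here.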

Additional observations from a re-analysis of the deposited data

Results flagged for a closer look

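Among 192 named genes, each looked at in WT_PBS and in DTR_PBS, there were 17 groups in which 1 library stood apart from the other 5 on the log2 CPM scale, with a gap over the range above Dixon's 95% critical value for 6 samples; chance gives about 1 in 20 groups. In WT_PBS the highest library stood apart for Ereg (library 1, 0.286 CPM against 0.0713 in the next, ratio 0.64), Lgals4 (library 2, 82.0 against 48.8 CPM, 0.686), Ucp3 (library 2, 88.0 against 55.7 CPM, 0.646) and Rpl3 (library 1, 68.3 against 52.8 CPM, 0.652). The lowest stood apart for Slc25a4 (library 6, 4590 against 5170 CPM, 0.652), Rrp12 (library 5, 24.9 against 34.5 CPM, 0.653) and Fosl1 (library 2, 0.543 against 1.64 CPM, 0.693).

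In DTR_PBS library 1 was apart at the low end for Nr3c2 (2.92 against 7.08 CPM, 0.636) and Asb14 (4.1 against 12.9 CPM, 0.636), 2 genes that fell. Library 5 was apart at the low end for Fst (8.5 against 11.8 CPM, 0.649), which rose. The highest library was apart for Trim17 (library 2, 24.3 against 8.25 CPM, 0.641), Cntn2 (library 4, 2.22 against 0.801 CPM, 0.84) and BB218582 (library 6, 2.94 against 1.13 CPM, 0.755). For Tarm1 and Olr1 a single WT_PBS library (library 2, 0.272 CPM) and for Cbln1 and Rnase1 a single DTR_PBS library (library 1, 0.0215 and 0.0429 CPM) held counts where the other 5 had 0, a ratio of 1.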

How the results depend on the processing

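Under total-count scaling 5705 genes rose and 1756 fell, where TMM scaling gave 3293 and 3341, and 76.1% of the calls were shared in the same direction. Leaving out a library in turn gave between 2840 rises (without DTR_PBS 1) and 3399 (without WT_PBS 6), and between 2831 falls (without DTR_PBS 2) and 3453 (without DTR_PBS 6). DESeq2 gave 3447 and 3521, its size factors in edgeR 3311 and 3326, no filter 3475 and 3037, and a filter at 2 CPM 3019 and 3165. That filter also gave 45 rises among RIKEN names and 31 rises and 56 falls among Gm genes, since fewer were tested. Of 189 named genes that passed, 187 kept direction and threshold in each of the 19 alternatives that tested them; the exceptions were Fabp5 and Slc25a5. No paired analysis was possible because the labels give the groups no shared replicate numbers. The shallowest library, of 1877914 counts, limits what can be seen of genes near 0.5 CPM.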
